A study of Mus musculus with 4 samples.

Results

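The 49 genes described here encode the ligands, receptors, extracellular antagonists and Smad proteins of TGF-beta, BMP and GDF signalling, with the Id genes as targets. They were taken by symbol from the 30222 gene names on an Agilent mouse whole-genome array read in a single colour (Cy3), and all 49 were on it, through 70 probes. The list holds 3 TGF-beta ligands, 6 BMP ligands, 7 GDF ligands including myostatin, 3 inhibin or activin subunits, the procollagen proteinase Bmp1, 6 type I receptors, 4 type II receptors, the co-receptor Tgfbr3, 6 antagonists, 8 Smads and 4 Id genes.

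Ligands of this family are secreted dimers that bring type I and type II receptor kinases together. The activated type I receptor phosphorylates receptor-regulated Smads, Smad2 and Smad3 for TGF-beta and activin and Smad1, Smad5 and Smad9 for BMPs, which enter the nucleus with Smad4. Smad6 and Smad7 dampen the signal, and noggin, chordin, gremlin and follistatin bind ligands outside the cell. In tendon and ligament, TGF-beta signalling is known for its part in recruiting and maintaining scleraxis-expressing progenitors, and Gdf5, Gdf6 and Gdf7 for roles in joints and tendons.

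The study compared ligament-like tissue with its parent cells and 2 ligament samples with each other, to ask what a gene that its labels call only A does in stem cells and in mice. The transfected tissue was ligament-like tissue from mesenchymal stem cells into which mouse A had been introduced in pCAGGS, an expression plasmid for mammalian cells. The stem cells were mesenchymal stem cells of mouse embryos from a cell bank, both of the C3H background. The transgenic ligament came from A-transgenic C57BL/6J mice, made by introducing the same plasmid into fertilized eggs, and the wild type ligament from C57BL/6J mice without it. The labels used here do not give the ligament, the age or number of the animals, or the time in culture, and no mock-transfected cells were analysed here. Gene A is not named in the labels, so its own signal could not be followed. Strain and origin differ together wherever cells are set against ligament. Each group held 1 array, so no difference has a replicate check and no test was made.

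The arrays differed in brightness, with a 75th percentile of processed signal of 2272 in transfected tissue, 1165 in stem cells, 303 in transgenic ligament and 285 in wild type ligament. Each probe's normalised signal is its log2 signal minus the log2 of that percentile, so 0 is a bright probe of that array. The 2 ligament arrays were dimmer, and their lowest signal marked well above background by the scanner software lay at -3.90 in transgenic and -3.41 in wild type ligament, against -5.71 in transfected tissue and -5.79 in stem cells. A low-expressed gene therefore passed that mark less easily on the ligament arrays. A gene not well above background on an array is called dim there, and its difference is a bound against that lowest signal. Repeated spots of 1 probe had a pooled SD of 0.0655 in transfected tissue, 0.185 in stem cells, 0.107 in transgenic ligament and 0.0992 in wild type ligament (log2), which covers spot noise within an array and nothing between animals or cultures.

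The probes that carry the findings below were 60-base oligonucleotides, and the first 30 bases of some are shown with their place in the mm9 build named in the file headers. Bmp4, Gdf7, Tgfbr2 and Tgfb2 had 2 probes each, both shown because the probes of the first 3 genes did not give the same picture. The number after each symbol is the base of the transcript at which the probe begins, per the files. Whether a probe lies in the coding part or the 3′ untranslated part was not settled here.
Bmp4 1738, chr14:47003391-47003450, minus strand: caaccacctacacataccacacaaactgct
Bmp4 1931, chr14:47003198-47003257, minus strand: gacaaatatatttataactacatattaaaa
Gdf7 1083, chr12:8304980-8305039, minus strand: aagtcactgcacgtggactttaaggagctg
Gdf7 1309, chr12:8304754-8304813, minus strand: acatcgatgccgccaacaacgtggtctaca
Tgfbr2 4386, chr9:115997155-115997214, minus strand: tctagcggggaatttacagaatgctggtcc
Tgfbr2 2045, chr9:115999496-115999555, minus strand: gggaggagctgctcccaggagaagattcca
Tgfb2 2397, chr1:188449333-188449392, minus strand: attggaaatacgcccaagatcgaacagctt
Tgfb2 4196, chr1:188447534-188447593, minus strand: tcatccattatttccctgatttcattgaaa
The single probes of 3 members with the clearest differences between transfected tissue and stem cells are given next.
Tgfb3 3214, chr12:87397804-87397863, minus strand: tcccatgtctgacatgatgactcggcccca
Inhba 1118, chr13:16118634-16118693, plus strand: tcaacatttgctgtaagaaacagttctttg
Id4 922, chr13:48358668-48358727, plus strand: tgctaagtagaagagcaatcgtgaatccaa

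Most of the family was detected in every sample. Of the 49 members, 39 were well above background in transfected tissue, 39 in stem cells, 44 in transgenic ligament and 36 in wild type ligament, and 30 were so on all 4 arrays. Of all genes with a value, 55.3%, 55.8%, 54.0% and 49.8% were well above background on these arrays, in the same order. Each member was detected on at least 1 array, while 34.3% of all genes were detected on none. Among all genes with a value, 43.0% were detected on all 4 arrays, against 61.2% of the members.

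In the transfected tissue, 7 members were at least 2-fold lower than in stem cells and 0 were at least 2-fold higher. The 7 were the activin subunits Inhba and Inhbb, the ligand Tgfb3, the antagonists Nog and Fstl3, and the targets Id1 and Id4. Of all 17792 genes with a value in this comparison, 10.9% were at least 2-fold higher and 13.3% at least 2-fold lower, against 0% and 17.5% of the 40 members with a value. The share of lower members was near that of all genes. All 7 were well above background on both arrays, and their differences stayed past 2-fold under each of 7 other ways of processing. The median difference of the members was -0.10, beside -0.08 for all genes, on the log2 scale.

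The TGF-beta ligands did not move together. Tgfb3, one of the 3 TGF-beta isoforms, had a normalised signal of 1.83 in transfected tissue, against 3.47 in stem cells, so it was 3.10-fold lower. Its probe was spotted 10 times on each array, and the spots ran from 1.79 to 1.91 in transfected tissue and from 3.40 to 3.52 in stem cells. The difference of -1.63 was thus far larger than the spread of spots within either array. Tgfb2 lay at 2.60 in transfected tissue, against 1.74 in stem cells, a difference of 0.86, and its second probe gave 0.72. Tgfb2 stayed within 2-fold here but passed it under 2 of the 7 other settings. Tgfb1, a further isoform, was at -3.48 in transfected tissue and -2.98 in stem cells, and its spots did not overlap between the arrays (-3.57 to -3.39 in transfected tissue, -3.16 to -2.82 in stem cells).

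**Figure D1:**
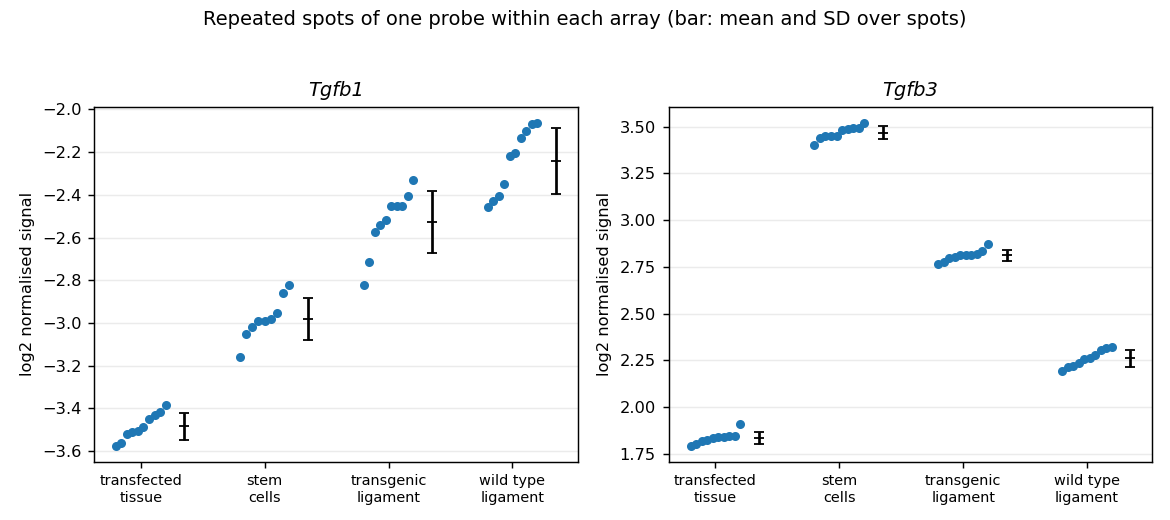
Log2 normalised signal of each kept spot of the Tgfb1 and Tgfb3 probes on the 4 arrays, with the mean and SD over 9 or 10 spots beside them. Tgfb3 spots lie at 1.79 to 1.91 in transfected tissue and at 3.40 to 3.52 in stem cells, and the spread shown is that of spots within 1 array.

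Activin subunits were among the largest differences. Inhba, whose product forms activin A as a homodimer, was at -3.96 in transfected tissue and -1.25 in stem cells, 6.53-fold lower. Inhbb, the subunit of activin B, was at -0.63 in transfected tissue and 0.88 in stem cells, 2.86-fold lower. Inha, the alpha subunit that turns these into inhibins, differed by -0.45, with -2.99 in transfected tissue and -2.54 in stem cells. The activin-binding glycoprotein Fstl3 was 2.24-fold lower, at -2.00 in transfected tissue and -0.84 in stem cells. Its relative Fst, follistatin, hardly differed, at 1.36 in transfected tissue and 1.40 in stem cells.

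BMP ligands were few in the cultured samples. Bmp2, Bmp3, Bmp5 and Bmp7 were dim in both transfected tissue and stem cells and give no value. Bmp4 was at 5.75 in transfected tissue and 5.92 in stem cells by its probe at base 1738, a difference of -0.18 that turned positive under 2 of the other settings. The probe at base 1931 was dim on all 4 arrays, although both belong to the same gene. Bmp6 was at -4.93 in transfected tissue and dim in stem cells, which gives at least 1.81-fold. Of the GDF ligands, Gdf6, Gdf11 and Gdf15 were measured on both arrays, with differences of 0.08, -0.36 and 0.20. Gdf5, which marks developing joints, was dim in transfected tissue and at -5.05 in stem cells, for a bound of -0.67. Gdf10 and Mstn were dim in both, and so was Gdf7 by its probe at base 1083. The Gdf7 probe at base 1309 was dim in transfected tissue and at -5.37 in stem cells, for a bound of -0.35.

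Receptors showed no member past 2-fold. Type II receptors, which bind ligand first in the TGF-beta and activin branches, had differences of 0.97 for the activin receptor Acvr2a, 0.60 for the TGF-beta receptor Tgfbr2, 0.49 for Bmpr2 and 0.08 for Acvr2b. The co-receptor Tgfbr3, betaglycan, which presents TGF-beta2, differed by 0.72. The type I receptors ran from -0.62 for Acvrl1 to 0.84 for Tgfbr1, with Bmpr1a at 0.36, Acvr1 at -0.15 and Acvr1b at -0.48. Bmpr1b was dim on both arrays. These sizes depend on the probe: the second Tgfbr2 probe gave -0.50 and a second Tgfbr1 probe -0.19. Of the 7 other settings, 2 put Tgfbr2 past 2-fold, and 1 put Acvr2a past it, at 1.11 with another centring. With normexp background correction Acvr2a differed by 0.32, and with the mean of both probes Tgfbr2 differed by 0.05.

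Smads were close to their stem cell levels. The BMP-regulated Smad1, Smad5 and Smad9 differed by 0.42, 0.21 and 0.48, the TGF-beta-regulated Smad2 and Smad3 by 0.47 and -0.26, and Smad4 by 0.07. A second Smad3 probe gave -1.14. The inhibitory Smads were both on the lower side, with Smad6 at 1.00 in transfected tissue and 1.51 in stem cells (-0.51) and Smad7 at -0.63 in transfected tissue and 0.09 in stem cells (-0.72), under every setting tried.

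The 4 Id genes, which encode inhibitors of basic helix-loop-helix transcription factors and are direct BMP targets, went different ways. Id4 was at -4.85 in transfected tissue and -2.51 in stem cells, 5.09-fold lower. Id1 was at 2.06 in transfected tissue and 3.22 in stem cells, 2.23-fold lower. Id3 differed by -0.53, with 3.97 in transfected tissue and 4.50 in stem cells. Id2 lay at 2.53 in transfected tissue and 2.26 in stem cells, a difference of 0.27 that was positive under all settings. Among the antagonists, the BMP antagonist Nog was at -5.16 in transfected tissue and -3.44 in stem cells, 3.31-fold lower, while Grem1 differed by 0.65 and Chrd by -0.05.

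**Figure D2:**
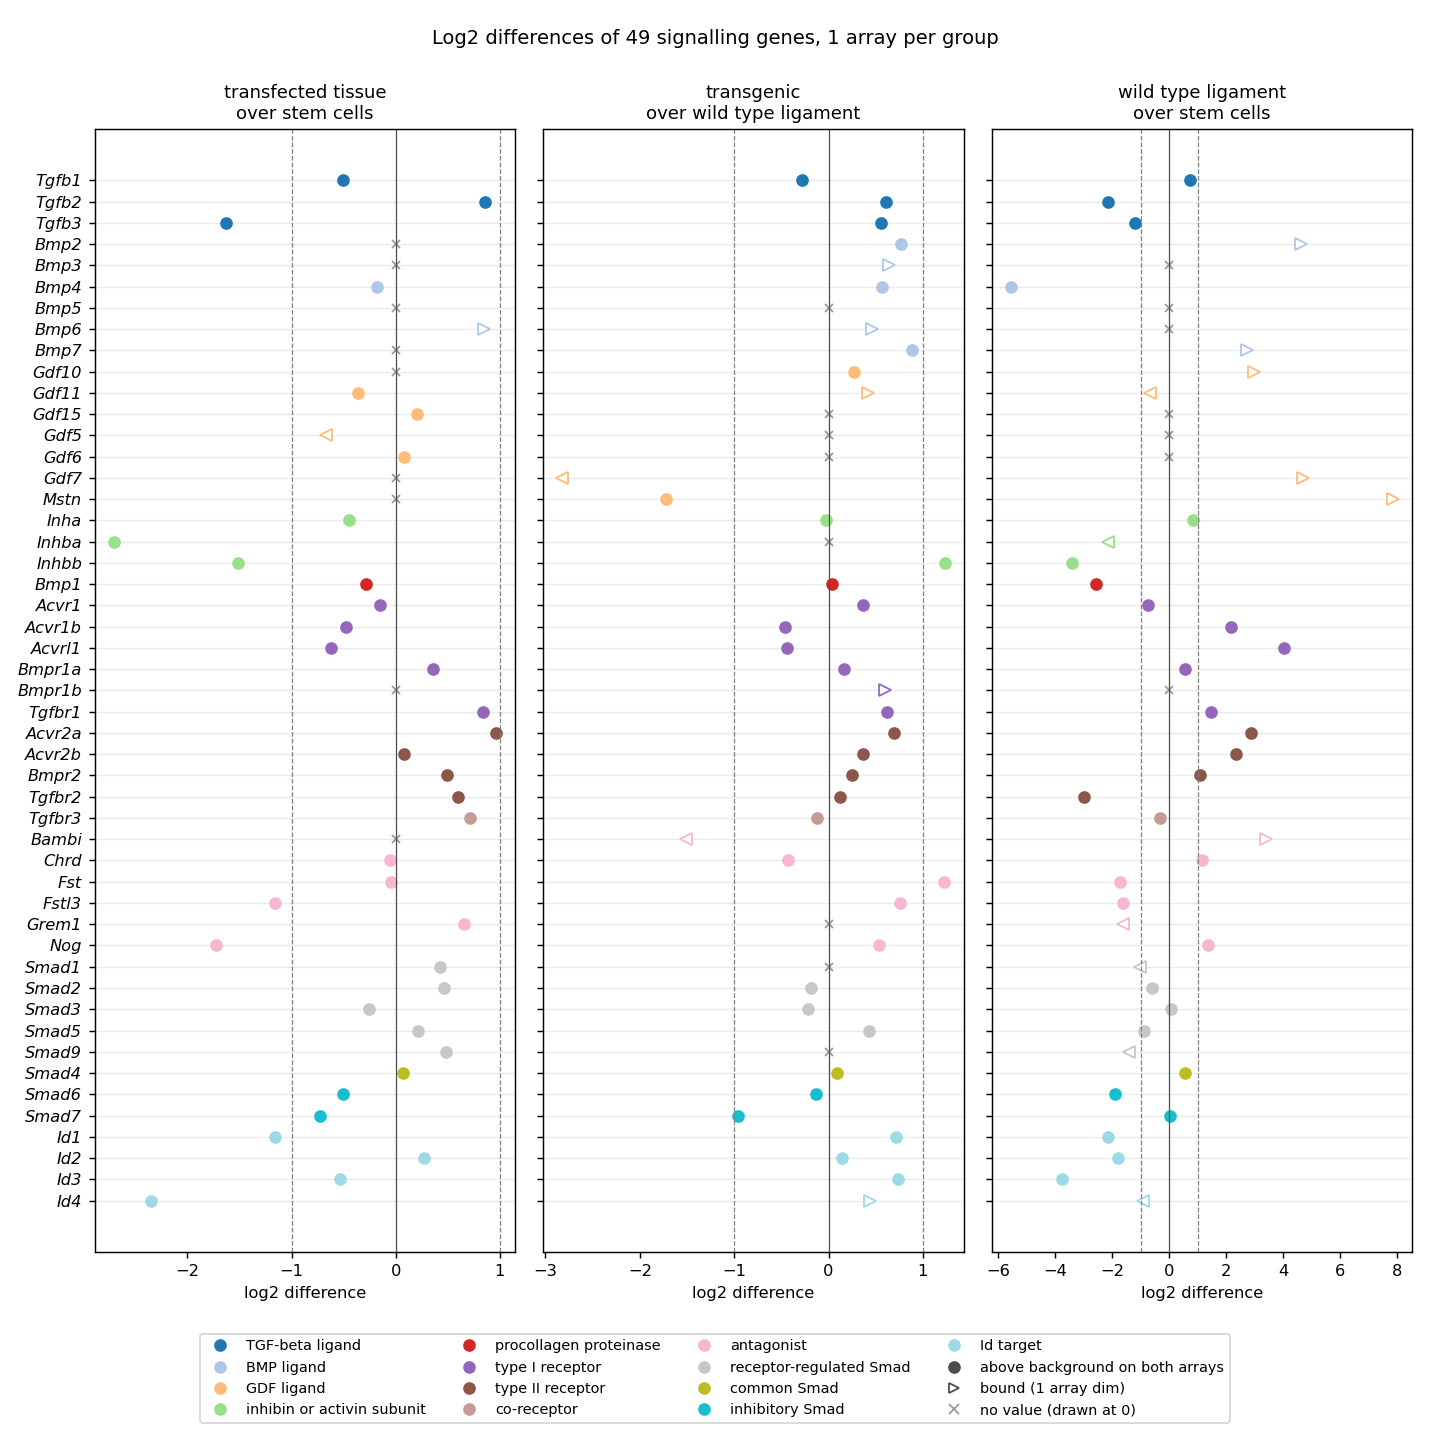
Log2 difference of each of the 49 members (rows, coloured by role) in 3 comparisons, with 1 array per group; filled circles were well above background on both arrays, open triangles are bounds and crosses had no value. Dashed lines mark 2-fold. Transfected tissue against stem cells has 7 members left of the lower line and none right of the upper one.

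Promoters of the Id genes were examined because these targets differed in direction and size. Those of Id2 and Id4, which held the element described next, are shown. RefSeq promoters (GRCm38.p6) were at hand for 33 of the 49 members. GGCGCC, a GC-rich element described in BMP-responsive promoters and identical on both strands, occurred in the 250 bases before the start of 9 of these 33 (27.3%), against 10.8% of 27025 genes with a promoter. Member promoters were richer in CG pairs, with a median of 22 in those 250 bases against 6, and what this does to the count was not tested. Id2 and Id4, with differences of 0.27 and -2.35, each held the element once, and Id3 did not hold it. Id1 was not among the 33. The element is in capitals in the sequences of Id2 and Id4, given as 5′ to 3′ along the gene.
Id4, chr13:48260866-48261115, plus strand: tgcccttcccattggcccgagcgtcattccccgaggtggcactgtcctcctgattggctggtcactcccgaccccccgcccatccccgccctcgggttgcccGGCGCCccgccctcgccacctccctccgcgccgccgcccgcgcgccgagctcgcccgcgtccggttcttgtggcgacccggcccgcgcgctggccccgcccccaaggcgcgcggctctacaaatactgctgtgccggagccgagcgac
Id2, chr12:25096093-25096342, minus strand: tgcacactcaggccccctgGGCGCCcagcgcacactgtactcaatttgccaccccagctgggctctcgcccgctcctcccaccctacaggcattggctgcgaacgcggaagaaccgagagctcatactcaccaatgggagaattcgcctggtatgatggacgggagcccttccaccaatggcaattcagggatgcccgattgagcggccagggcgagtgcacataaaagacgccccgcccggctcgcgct

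Genes downstream of and around the pathway were counted from lists. Of 19 transcriptional targets with a value, 7 were at least 2-fold lower in transfected tissue than in stem cells and 0 higher, with a median of -0.74, beside 13.3% lower and 10.9% higher among all genes. Hes1, Klf10 and Hey1, encoding transcription factors, differed by -2.80, -2.58 and -2.31. Of 15 intracellular regulators, 2 were lower, the co-repressor Skil (-1.08) and the ubiquitin ligase Smurf1 (-1.03). Among 11 genes of latent TGF-beta binding and activation, the integrin subunit Itgb8 was higher (1.49), and the activator Thbs1 (-2.15) and Ltbp2 (-1.27) were lower. The other antagonists had Crim1 (1.96) and Nbl1 (1.05) higher of 9. Of 7 other receptors and co-receptors, 3 were higher (Hfe2, or hemojuvelin, by at least 2.58, Tdgf1 by 1.87 and Rgmb by 1.21) and 2 lower (Cd109, a TGF-beta co-receptor, by -3.15 and endoglin, Eng, by -1.01). Of 6 other ligands, Gdf1 was higher (1.15) and Inhbe lower (-1.12).

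Tissue markers were set beside these values. The summed signal of 9 tendon and ligament markers, on the linear scale relative to the 75th percentile, was 7.54 in transfected tissue and 7.73 in stem cells. Of these, 6 were well above background in transfected tissue and 7 in stem cells, and Thbs4, Tnc and Chad were dim in the tissue. With a value for 8 of them, 1 was at least 2-fold higher in transfected tissue and 2 were at least 2-fold lower. The median difference of these 8 was -0.36. Scleraxis, Scx, a transcription factor of the tendon lineage and one of the lower markers, was at -1.18 in transfected tissue and 0.57 in stem cells. Scx alone does not stand for the list. Stromal markers summed to 76.3 in transfected tissue and 134 in stem cells, with 4 of 7 lower. Of 6 adipocyte markers, 5 were well above background in transfected tissue and 1 in stem cells, and 4 of the 5 with a value were higher in transfected tissue. Of 5 bone markers with a value, 2 were higher. The part of these markers in the differences above was not tested.

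**Figure D3:**
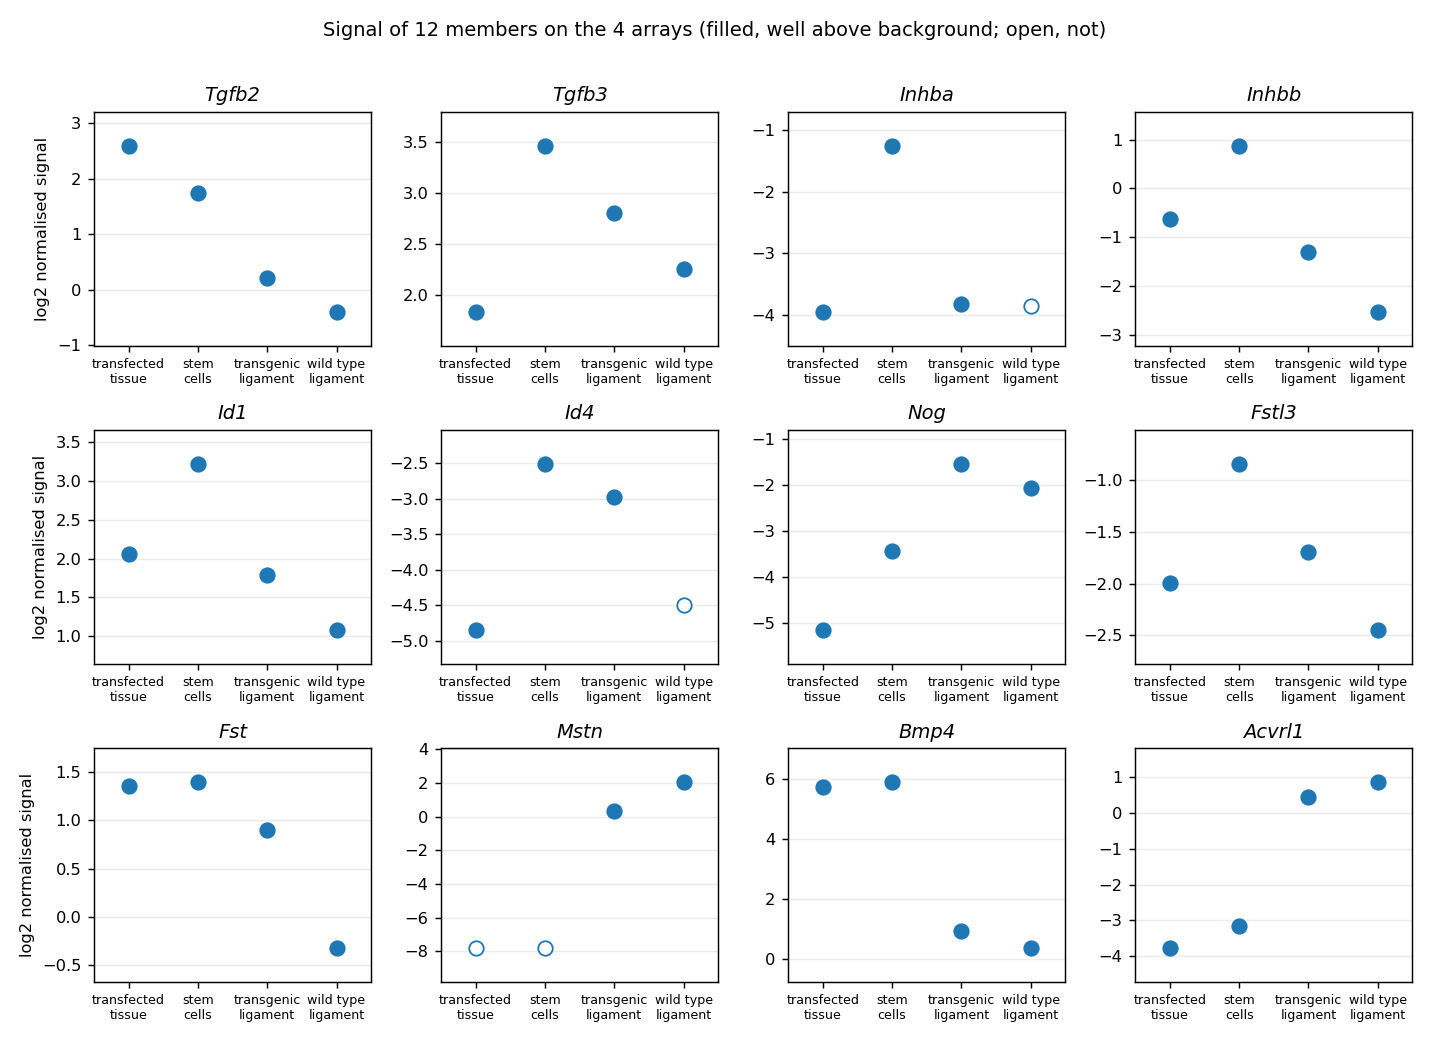
Log2 normalised signal of 12 members on the 4 arrays, 1 point per array; filled points were well above background and open points were not. Inhba, Inhbb, Tgfb3, Id1, Id4, Nog and Fstl3 lie lower in transfected tissue than in stem cells, and each panel has its own scale.

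In transgenic ligament, 2 members were at least 2-fold higher than in wild type ligament, Inhbb and Fst, and 3 were at least 2-fold lower, Gdf7, Mstn and Bambi. These were 4.88% and 7.32% of the 41 members with a value, against 6.29% and 7.05% of all 16348 genes with a value, so both shares were near the background. The median member differed by 0.36, beside -0.03 for all genes, with 28 positive and 13 negative values. These values include bounds, whose sign is set by which array was dim. The member median was 0.26 with only genes well above background on both arrays. It was 0.16 with normexp background correction and 0.20 when all probes of a gene were averaged.

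Inhbb was at -1.31 in transgenic ligament and -2.54 in wild type ligament, 2.35-fold higher. Its difference was 0.65 with normexp background correction, within 2-fold. Fst, which binds and neutralises activins and myostatin, was at 0.90 in transgenic ligament and -0.32 in wild type ligament, 2.34-fold higher, and stayed past 2-fold under all 7 other settings. Mstn, the negative regulator of muscle mass, was at 0.36 in transgenic ligament and 2.08 in wild type ligament, 3.29-fold lower, also under all settings. Follistatin and its ligand myostatin thus lay on opposite sides in this pair of arrays.

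Gdf7 and Bambi were lower only as bounds. Gdf7 was dim in transgenic ligament and at -1.08 in wild type ligament by its probe at base 1083, at least 7.07-fold lower. Its probe at base 1309 was dim in both ligaments and gave no value, so the difference rests on 1 spot per array. Bambi, a pseudoreceptor that dampens TGF-beta and BMP signalling, was dim in transgenic ligament and at -2.39 in wild type ligament, at least 2.85-fold lower. With normexp the Bambi bound was -0.82, within 2-fold.

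The BMP ligands measured in both ligaments, Bmp2, Bmp4 and Bmp7, lay on the higher side, within 2-fold. Bmp2 was at -0.39 in transgenic ligament and -1.15 in wild type ligament (0.76). Bmp4 was at 0.93 in transgenic ligament and 0.37 in wild type ligament (0.57), and Bmp7 at -2.17 in transgenic and -3.05 in wild type ligament (0.88). These 3 differences were positive under all settings, with lowest values of 0.56, 0.03 and 0.30. Bmp7 passed 2-fold with the deposited table, at 1.04. Bmp3 and Bmp6 were detected only in transgenic ligament, with bounds of 0.65 and 0.46. The sign of these bounds was set by the dim array, and they cannot show whether 2-fold was passed. Bmp5 was also detected only there, too weakly for a bound above 0.

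The 3 measured Id genes were on the same side. Id1 was at 1.79 in transgenic ligament and 1.08 in wild type ligament (0.71), Id3 at 1.46 in transgenic and 0.72 in wild type ligament (0.74), and Id2 at 0.58 in transgenic and 0.44 in wild type ligament (0.14). Id4 was detected only in transgenic ligament, with a bound of 0.43. The differences of Id1, Id2 and Id3 were within 2-fold and positive under all settings.

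Tgfb2 was at 0.21 in transgenic ligament and -0.40 in wild type ligament (0.61), and its second probe gave 1.29, past 2-fold. Tgfb3 was at 2.81 in transgenic ligament and 2.26 in wild type ligament (0.55), and its 10 spots did not overlap, running from 2.77 to 2.87 in transgenic and from 2.19 to 2.32 in wild type ligament. Tgfb1 was at -2.53 in transgenic ligament and -2.24 in wild type ligament (-0.28), with spots that overlapped. Smad7 was at -0.84 in transgenic ligament and 0.12 in wild type ligament, a difference of -0.96 that passed 2-fold under 2 of the other settings, down to -1.11, and Smad6 differed by -0.14. The other measured Smads ran from -0.22 for Smad3 to 0.43 for Smad5.

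Of the other GDFs, Gdf5 was at -3.57 in transgenic ligament, dim in wild type and so without a usable bound, and Gdf6 was dim in both ligaments. Gdf10 was measured in both, at -2.53 in transgenic ligament and -2.80 in wild type ligament (0.27). Gdf11, a close relative of myostatin, was at -2.99 in transgenic ligament and dim in wild type ligament, with a bound of 0.42. Gdf15, a stress-induced cytokine, was likewise detected in transgenic ligament alone, at -3.64, with no usable bound.

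Receptors were again within 2-fold by their brightest probes, from -0.46 for Acvr1b to 0.69 for Acvr2a. The BMP type I receptor Bmpr1a was at 1.87 in transgenic ligament and 1.71 in wild type ligament (0.16), and Bmpr1b was detected in transgenic ligament alone, at -2.64, with a bound of 0.59. The second Acvr1b probe gave -1.54, and a further Tgfbr1 probe at least 1.41 where the brightest gave 0.62. Of the remaining antagonists, Fstl3 differed by 0.76, Nog by 0.53 and Chrd by -0.43. Of 17 transcriptional targets, Ctgf, a matricellular protein induced by TGF-beta, was higher (1.86) and D0H4S114, now Nrep, lower (-1.34). The integrin subunit Itgav was higher (1.55), Lrrc33, now Nrros, lower (-1.02), Skil higher (1.07), Smurf1 lower (-1.44) and Chrdl2 higher by at least 1.26. No listed gene of the other ligands (6 with a value) or other receptors (8) passed 2-fold.

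The ligament samples held other tissues, and their make-up differed between the arrays. All 11 skeletal muscle markers on the array were well above background in both, and summed to 5999 in transgenic and 6975 in wild type ligament, against 0.727 in transfected tissue and 1.95 in stem cells. These markers went different ways, as 4 of 11 were at least 2-fold higher in transgenic ligament and 1 was at least 2-fold lower. Neutrophil markers summed to 430 in transgenic and 1215 in wild type ligament (9 of 9 lower), and erythroid markers to 276 in transgenic and 1011 in wild type ligament (7 of 7 lower). Bone markers summed to 213 in transgenic and 53.4 in wild type ligament, cartilage markers to 14.5 in transgenic and 2.44 in wild type ligament, and epidermal markers to 156 in transgenic and 28.1 in wild type ligament. Tendon and ligament markers summed to 41.2 in transgenic and 12.5 in wild type ligament. Of 9 tendon and ligament markers, 9 were well above background in transgenic and 8 in wild type ligament, where Mkx was dim, and 7 were at least 2-fold higher in transgenic ligament. In such mixed tissue, fewer cells of a type and less RNA per cell cannot be told apart. The part of these markers in the differences of Inhbb, Fst, Mstn, Gdf7, the BMP ligands and the Id genes was not tested.

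The 2 comparisons that involve A share no array. Of 33 members with a value in both, 0 were higher and 6 lower in transfected tissue against stem cells. Between the ligaments, 2 of the 33 were higher and 0 lower. No member could therefore be past 2-fold in the same direction, and the overlap of 0 cannot show whether the comparisons differ. Inhbb was past 2-fold in opposite directions: lower in transfected tissue (-1.52) and higher in transgenic ligament (1.23). With normexp its ligament difference was within 2-fold (0.65). Among 14465 genes with both values, 114 were higher in both, which is 8.39% of those higher in the cell comparison and 16.3% of those higher in the ligament comparison. Another 173 were lower in both (10.1% and 24.9% in the same order), and 256 were opposite. Id1, Nog, Fstl3 and Tgfb3, lower in transfected tissue, had positive differences within 2-fold in transgenic ligament.

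**Figure D4:**
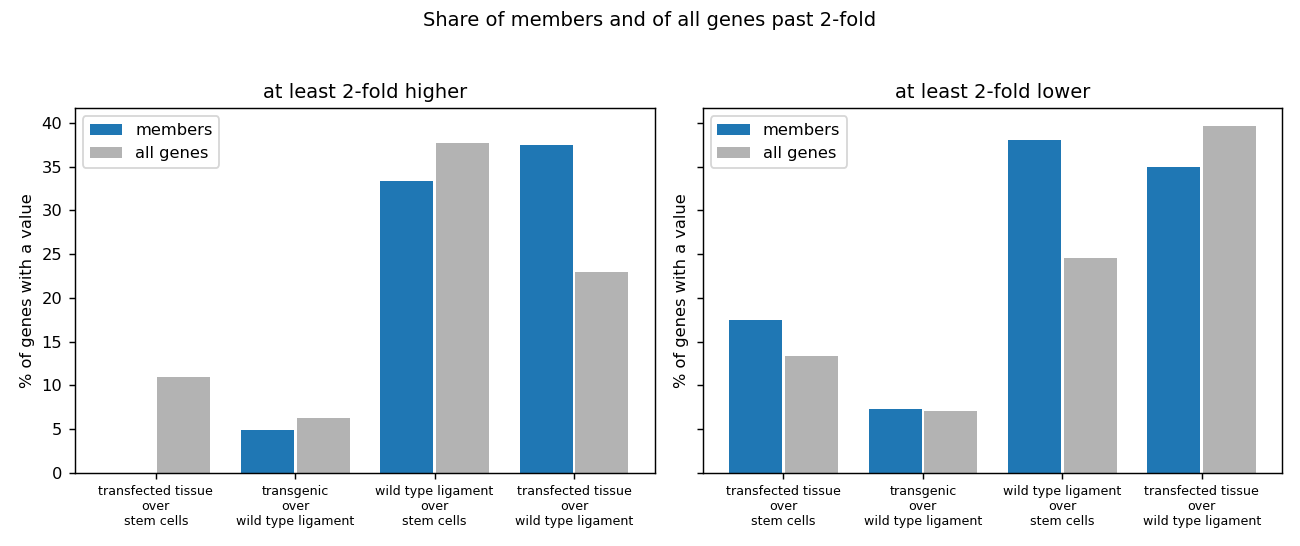
Percentage of members (blue) and of all genes (grey) with a value that were at least 2-fold higher (left) or lower (right) in each of 4 comparisons. Members at 0% and 17.5% stand beside 10.9% and 13.3% of all genes in transfected tissue against stem cells.

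Between wild type ligament and stem cells, ligands and receptors stood far apart in both directions. In wild type ligament, 14 of 42 members with a value were at least 2-fold higher than in stem cells and 16 were lower, 33.3% and 38.1%, against 37.7% and 24.6% of all 16524 genes. The median member differed by -0.46, beside 0.30 for all genes. Of these calls, 6 higher and 4 lower ones were bounds.

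Bmp4 had the lowest difference of the members. It was at 0.37 in wild type ligament and 5.92 in stem cells, 47.1-fold lower, a log2 difference of -5.56, or -1.63 when averaged with its dim probe. Bmp2 and Bmp7, dim in stem cells, were at -1.15 and -3.05 in wild type ligament, at least 24.9-fold and 6.67-fold higher. Mstn was at 2.08 in wild type ligament and dim in stem cells, at least 234-fold higher, beside the skeletal muscle markers given above. Gdf7, by its probe at base 1083, and Gdf10 were at least 26.1-fold and 7.90-fold higher. The Gdf7 probe at base 1309 was instead dim in wild type ligament and at -5.37 in stem cells, and it gave no value here. The Gdf7 difference therefore rests on 1 of its probes.

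Of the 3 activin or inhibin subunits and the 3 TGF-beta ligands, 2 of each were lower in wild type ligament. Inhbb was at -2.54 in wild type ligament and 0.88 in stem cells (-3.42), Inhba dim in wild type ligament and at -1.25 in stem cells (a bound of -2.16), Tgfb2 at -0.40 in wild type ligament and 1.74 in stem cells (-2.14) and Tgfb3 at 2.26 in wild type ligament and 3.47 in stem cells (-1.21). Tgfb1 differed by 0.74 and Inha by 0.83, both positive under all settings. The Inhba bound was -0.93 with normexp, within 2-fold. Bmp1, which cleaves procollagen and chordin, was lower by all 3 of its probes, from -2.57 to -1.49.

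Of 5 type I receptors with a value, 3 were higher and 0 lower in wild type ligament. Of 4 type II receptors, 3 were higher and 1, Tgfbr2 by its brightest probe, lower. Among all genes, 37.7% were higher and 24.6% lower. Acvrl1, the endothelial type I receptor ALK1, was at 0.87 in wild type ligament and -3.15 in stem cells, 16.2-fold higher. Endothelial markers summed to 29.3 in wild type ligament and 4.75 in stem cells. Of 7 such markers, 5 were well above background in wild type ligament and 4 in stem cells, where Cdh5, Emcn and Esam were dim. Their part in the Acvrl1 difference was not tested. Acvr2a (2.86), Acvr2b (2.35), Acvr1b (2.17), Tgfbr1 (1.48) and Bmpr2 (1.07) were higher too. The Bmpr2 call was lost under 4 of the 7 other settings, with a lowest value of 0.84, and the other 4 held under all of them. Acvr1 (-0.73), Bmpr1a (0.54) and the co-receptor Tgfbr3 (-0.32) were within 2-fold, and Bmpr1b was dim on both arrays.

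Tgfbr2, the type II receptor for TGF-beta, could not be given a direction. Its probe at base 4386 was at 1.12 in wild type ligament and 4.12 in stem cells, 8.02-fold lower. Its probe at base 2045 was at 0.06 in wild type ligament and -0.94 in stem cells, a log2 difference of 1.00. Both were well above background on all 4 arrays. In transfected tissue against wild type ligament they were past 2-fold in opposite directions, at 3.60 and -1.50.

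**Figure D5:**
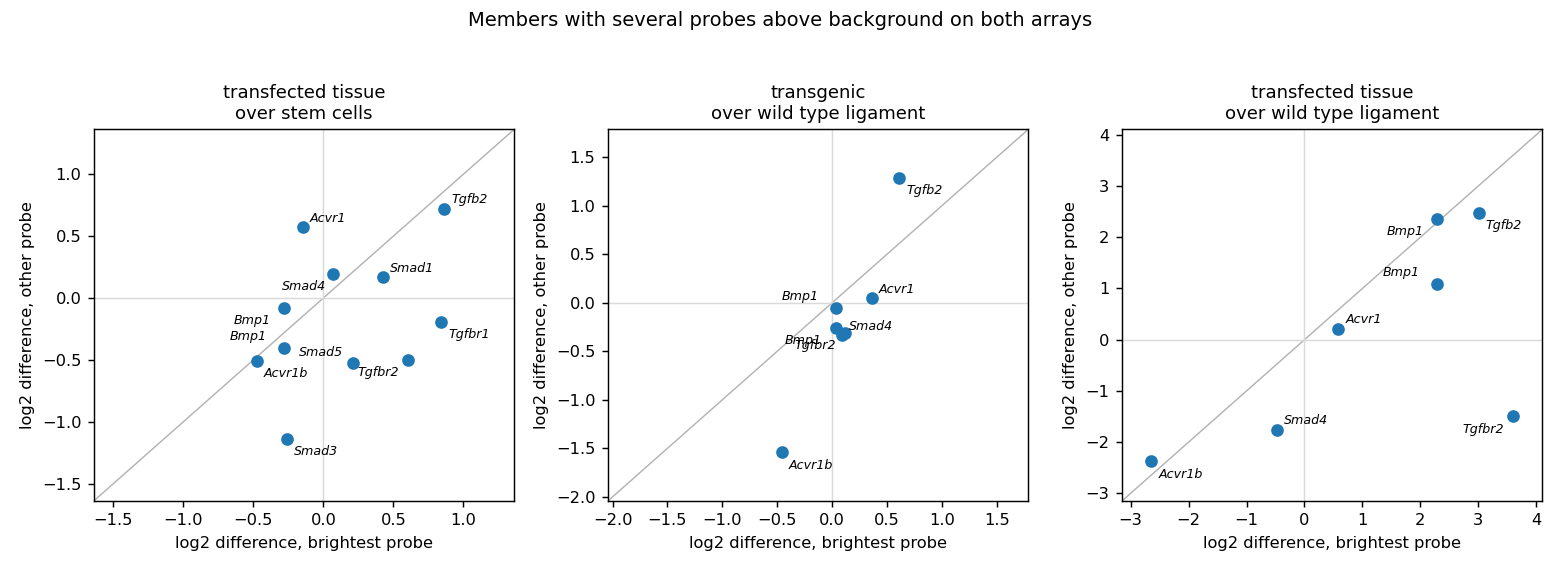
Log2 difference of the brightest probe (x axis) against that of another probe of the same gene (y axis) in 3 comparisons, for probes well above background on both arrays; the line marks equal values. Tgfbr2 lies at 3.60 and -1.50 in transfected tissue against wild type ligament.

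Over all such pairs of probes, the sign was the same in 7 of 11 in transfected tissue against stem cells, 3 of 7 in transgenic against wild type ligament, 5 of 7 between wild type ligament and stem cells and 6 of 7 where transfected tissue was set against wild type ligament. The median gap between both probes' differences was 0.26, 0.43, 1.07 and 0.53 in those comparisons. Between the 2 ligaments, the gap of 0.43 compares with a median member difference of 0.36.

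Id genes and antagonists were also set apart between wild type ligament and stem cells. Id3 was at 0.72 in wild type ligament and 4.50 in stem cells (-3.78), Id1 at 1.08 in wild type ligament and 3.22 in stem cells (-2.14) and Id2 at 0.44 in wild type ligament and 2.26 in stem cells (-1.81). Id4 gave a bound of -0.90. Fst (-1.72), Fstl3 (-1.62) and Grem1 (a bound of -1.64) were lower, and Bambi (at least 3.40), Nog (1.36) and Chrd (1.14) higher. With quantile normalization Nog differed by 0.70 and Chrd by 0.23, within 2-fold, and with normexp Fstl3 differed by -0.88 and the Grem1 bound was -0.44. Of the Smads, Smad6 (-1.91) was lower, and Smad9 and Smad1 gave bounds of -1.43 and -1.02. With normexp these bounds were -0.35 and -0.04, within 2-fold. Smad2, Smad3, Smad4, Smad5 and Smad7 were within 2-fold by their brightest probes. The second Smad4 probe gave 1.95, and Smad5 passed 2-fold under 3 of the other settings, down to -1.09.

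The comparison of transfected tissue with wild type ligament shares the wild type array with the one above. Of 40 members with a value, 15 were at least 2-fold higher and 14 lower, 37.5% and 35%, against 23% and 39.7% of all 16467 genes. Bmp4 was at 5.75 in transfected tissue and 0.37 in wild type ligament (5.38), Id3 at 3.97 in transfected tissue and 0.72 in wild type ligament (3.25), and Tgfb2 at 2.60 in transfected tissue and -0.40 in wild type ligament (3.00). Mstn, Bmp2, Gdf7, Bambi, Gdf10 and Bmp7 were dim in transfected tissue. Acvrl1 was at -3.78 in transfected tissue and 0.87 in wild type ligament (-4.64), and Nog at -5.16 in transfected tissue and -2.08 in wild type ligament (-3.08). Of the 5 receptor-regulated Smads, Smad1, Smad2, Smad5 and Smad9 were higher, by 1.06 to 1.91 with Smad1 and Smad9 as bounds, and Smad3 differed by -0.33. Each of these 4 calls fell within 2-fold under 1 setting, and Smad1 had no value under 2 further settings and Smad9 under 1. Smad1 (0.31), Smad2 (0.85) and Smad9 (0.72) lay within 2-fold with normexp, and Smad5 (0.67) with the mean of its probes.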

How the data were processed

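RNA of 4 mouse samples was measured on Agilent Cy3 arrays, 1 array per group, all on 1 slide with 1 scan time. Per the file headers, the scanner files hold spot intensity as background-subtracted processed signal from Feature Extraction 10.7.1.1. Per the submitters' processing notes the version was 9.5.1.1, and which is right was not settled. The deposited value table (39429 probes, median 49.7) also holds linear intensity, on nearly equal distributions in its 4 columns. Its normalization is not given in the sources used here.

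Here, non-uniform and population outlier spots (155 to 281 of 44397 per array) were left out. Processed signals were divided by their array's 75th percentile, put on a log2 scale and averaged over a probe's spots. Where a gene had several probes, the brightest on average stood for it. A gene was compared where well above background on at least 1 of both arrays. Where the dimmer array was not, the higher of its own signal and that array's lowest signal well above background stood in, as a bound. At least 2-fold counted as higher or lower. Named were all members and, of other pathway lists, up to 4 genes past 2-fold with the largest difference per list and comparison. One gene that this rule names is not reported here. The members and lists were chosen with earlier results of these data known. The steps were tested on simulated data. Alternatives were quantile normalization, normexp background correction (limma 3.58.1, R 4.3.3, offset 50), another centring, the deposited table, only genes detected on both arrays, no filter, and the mean of all probes.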

Additional observations from a re-analysis of the deposited data

Results flagged for a closer look

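Inhbb was past 2-fold in opposite directions in the 2 comparisons that involve A. Its log2 difference was -1.52 in transfected tissue against stem cells and 1.23 in transgenic against wild type ligament, which are -2.75 apart (cells minus ligament). All 4 arrays were well above background for its probe. With normexp background correction its ligament difference was 0.65, within 2-fold. Among 14465 genes with both values, 256 were past 2-fold in opposite directions. With 1 array per group, the difference between both effects was not tested.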

How the results depend on the processing

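The 7 members lower in transfected tissue than in stem cells stayed so under all 7 alternatives, and the number of higher members was 2 with quantile normalization, 2 with centring on probes detected on all arrays, and 1 each with the deposited table and with no filter. The median of the members changed sign there, to 0.0025 with quantile normalization, 0.0443 with that centring and 0.0039 with the deposited table, and that of all genes moved from -0.08 to 0.02, 0.06 and 0.02. Of the 5 calls in transgenic against wild type ligament, 2 (Fst and Mstn) held under all alternatives. The higher members were 1 with normexp and 8 with no filter, the lower ones 1 with detection on both arrays, and the median 0.163 with normexp and 0.203 with the mean of probes. In wild type ligament against stem cells, 16 of 30 calls held under all alternatives. There were 8 higher members with detection on both arrays, and the median was -0.0849 with normexp and 0.0307 with no filter or with the mean of probes. The all-gene median was 0.30, and -0.14 with quantile normalization. The split was 14 higher and 16 lower members, or 11 and 19 with quantile normalization. In transfected tissue against wild type ligament, 15 of 29 calls held. Tgfbr2 is again among them, with probes past 2-fold in opposite directions (3.60 and -1.50). There were 8 lower members with detection on both arrays, and the median was 0.212 with quantile normalization, 0.0442 with the other centring, 0.228 with the deposited table, -0.504 with the mean of probes and 0.136 with detection on both arrays. All calls lost with detection on both arrays were bounds, which that setting leaves out. The cause of the other changes was not tested. Signal over background limits the dim genes, which give bounds only, and 1 array per group limits every value. No paired analysis was possible because each group held 1 array.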

Other observations

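Among pathway genes outside the 49 members, several differed widely between wild type ligament and stem cells. Of 8 other receptors and co-receptors, 5 were at least 2-fold higher in wild type ligament and 2 lower, where 37.7% of all genes were higher and 24.6% lower. Hfe2, hemojuvelin, a BMP co-receptor abundant in skeletal muscle, was at 4.19 in wild type ligament and dim in stem cells, a log2 difference of at least 9.97, beside muscle markers summing to 6975 in wild type ligament and 1.95 in stem cells. Its level was -3.20 in transfected tissue, and the part of muscle content in it was not tested. Of 11 genes of latent TGF-beta binding and activation, 10 had a value, 5 higher and 4 lower. Ltbp4 was higher (5.49) and Ltbp2 lower (-5.83), both latent TGF-beta binding proteins of the elastic fibre. The follistatin-like Fstl1 was lower (-4.62), with 2.71 in wild type ligament and 7.33 in stem cells. Of 19 transcriptional targets, 3 were higher and 12 lower, beside 37.7% higher and 24.6% lower among all genes.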
